A study of Mus musculus with 18 samples.

Results

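The genes described are 10 members of the TYROBP adaptor pathway in mouse microglia, chosen by symbol from the 55536 genes of the count table: the adaptors Tyrobp and Hcst, the partner receptors Trem2 and Sirpb1a, and the downstream Syk, Plcg2, Inpp5d, Pik3cg, Vav1 and Btk. RNA was sequenced from striatal microglia, enriched by magnetic sorting for CD11b, an integrin subunit that other myeloid cells also carry. All mice were of the C57BL/6 strain by the labels, with a C57Bl6/J background in the methods, and fell into 5 WT, 3 Tyrobp-KO, 5 Q175 and 5 Q175;Tyrobp-KO samples. Q175 mice are heterozygous for a knock-in of human HTT exon 1 with an expanded CAG repeat in the endogenous Htt gene, a model of Huntington's disease. Tyrobp-KO mice lack Tyrobp in every cell of the body, not in microglia alone, and which exons the deletion removed is not given in the sources used here. Q175;Tyrobp-KO mice carry both alleles, and neither the labels nor the methods give an age for the microglia samples. By the labels, 1 of 5 WT, 2 of 3 Tyrobp-KO, 4 of 5 Q175 and 2 of 5 Q175;Tyrobp-KO samples came from females. The study asked how the mutant Htt allele, the loss of Tyrobp and their combination alter gene expression in striatal microglia.

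TYROBP, also called DAP12, is a small membrane adaptor that has almost no extracellular part and pairs with receptors that cannot signal by themselves, among them TREM2. When such a receptor binds a ligand, Src family kinases phosphorylate the immunoreceptor tyrosine-based activation motif (ITAM) of the adaptor, the kinase SYK docks on it, and SYK then activates phospholipase C gamma, VAV and PI3-kinase. HCST, or DAP10, is a related adaptor whose tyrosine motif recruits PI3-kinase directly. The lipid phosphatase encoded by Inpp5d, SHIP1, counteracts PI3-kinase and dampens the pathway.

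The motifs that carry the signal are shown as coding sequence, from GENCODE M21 transcripts (GRCm38), because the deleted gene encodes the first and its intact neighbour the second. Capitals mark the codons of the tyrosines that become phosphorylated, and each line is written 5′ to 3′. The Tyrobp motif spans residues 92 to 106 of 114 and the Hcst motif residues 72 to 75 of 79, counted from the start codon.
Tyrobp ITAM: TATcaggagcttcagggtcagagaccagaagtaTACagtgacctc
Hcst PI3-kinase motif: TACatcaacatg
Both genes lie on chromosome 7 and converge tail to tail. Tyrobp occupies 30413760 to 30417585 on the plus strand and Hcst 30417712 to 30419854 on the minus strand, so that 126 bases separate their 3′ ends. Trem2 lies on chromosome 17 from 48346401 to 48354147 and Sirpb1a on chromosome 3 from 15371653 to 15426520. Syk lies on chromosome 13 from 52583173 to 52648792, Plcg2 on chromosome 8 from 117498291 to 117635142, and Inpp5d on chromosome 1 from 87620312 to 87720507. Pik3cg lies on chromosome 12 from 32173473 to 32208659, Vav1 on chromosome 17 from 57279100 to 57328031, and Btk on chromosome X from 134542336 to 134583570. No exon of any of the 10 genes overlapped an exon of another gene. The libraries were non-directional, so reads that run past the 3′ end of one gene into the other cannot be assigned by strand.

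Samples had between 11260410 and 29771983 counts in total. Levels are given as CPM, counts scaled to the TMM-normalized library size. Microglial markers were above those of other cells: the geometric mean of 18 genes (CPM plus 1) was between 536 and 1340, against 88.1 to 376 for 10 oligodendrocyte genes, 17.2 to 91.8 for 15 astrocyte genes, 10.1 to 40.7 for 10 neuronal genes and 1.02 to 1.33 for lymphocyte and NK cell genes. Astrocyte markers were higher in Q175 than in WT samples (34.7 to 91.8 against 17.7 to 27.3, p = 0.00794 in a 2-sided exact permutation test, adjusted p = 0.286 over 36 tests). Mitochondrially encoded genes took 6.12% of the counts in Tyrobp-KO replicate 20 and 7.25% in Q175 replicate 14, and between 0.620% and 2.83% in the other samples. In these bulk samples fewer cells of a type and less RNA per cell cannot be told apart. The sources do not tie each sample to a mouse of its own, so p-values measure the spread between samples. They come from edgeR's quasi-likelihood test with Benjamini-Hochberg adjustment over all genes tested, and a gene was called at an FDR under 0.1.

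Tyrobp itself fell in both deleted groups. It was at 430.0, 397, 442, 231 and 198 CPM in WT replicates 1, 2, 6, 7 and 8, and at 263, 252, 216, 301 and 388 CPM in Q175 replicates 3, 4, 9, 14 and 17. In Tyrobp-KO replicates 15, 19 and 20 it was at 22.3, 20.8 and 17.1 CPM, and in Q175;Tyrobp-KO replicates 5, 11, 12, 13 and 16 at 9.59, 15.2, 13.2, 14.4 and 13.3 CPM. Every deleted sample was below every intact one. The fall was 17.1-fold in Tyrobp-KO against WT and 21.8-fold in Q175;Tyrobp-KO against Q175. The log2 fold change was -4.10 (SE 0.37, adjusted p = 0.00406) in the former and -4.45 (SE 0.19, adjusted p = 2.46e-07) in the latter. What remained was 5.90% ± 0.787 (SD, n = 3) of the WT mean and 4.62% ± 0.755 (SD, n = 5) of the Q175 mean. These residual reads amounted to between 158 and 444 counts per sample, and which part of the gene they cover was not analysed here.

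The residual Tyrobp level was also lower in Q175;Tyrobp-KO than in Tyrobp-KO samples. The 5 Q175;Tyrobp-KO values, 9.59 to 15.2 CPM, did not overlap the 3 Tyrobp-KO values, 17.1 to 22.3 CPM, and the log2 difference was -0.61 (SE 0.15, adjusted p = 0.291), ranking 145th by p among 17723 genes. edgeR called none of the genes in this comparison (0.0%), 2343 genes (13.2%) had an unadjusted p under 0.05 and 9.04% did not overlap between the groups. DESeq2's Wald test called 680 genes and gave Tyrobp an adjusted p of 0.0414. The level of genes under 1500 exonic bases, defined below as the short-transcript level, did not overlap between these groups either. It was 0.128 to 0.570 in Tyrobp-KO and -0.276 to -0.0388 in Q175;Tyrobp-KO. Tyrobp has 667 exonic bases, so this level and the Q175 allele cannot be told apart here. With Tyrobp present, the difference had the same sign and did not pass the test: Q175 against WT differed by -0.28 on the log2 scale (SE 0.26, adjusted p = 0.999), and the groups overlapped, with WT replicates 7 and 8 at the level of the lowest Q175 samples.

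**Figure D1:**
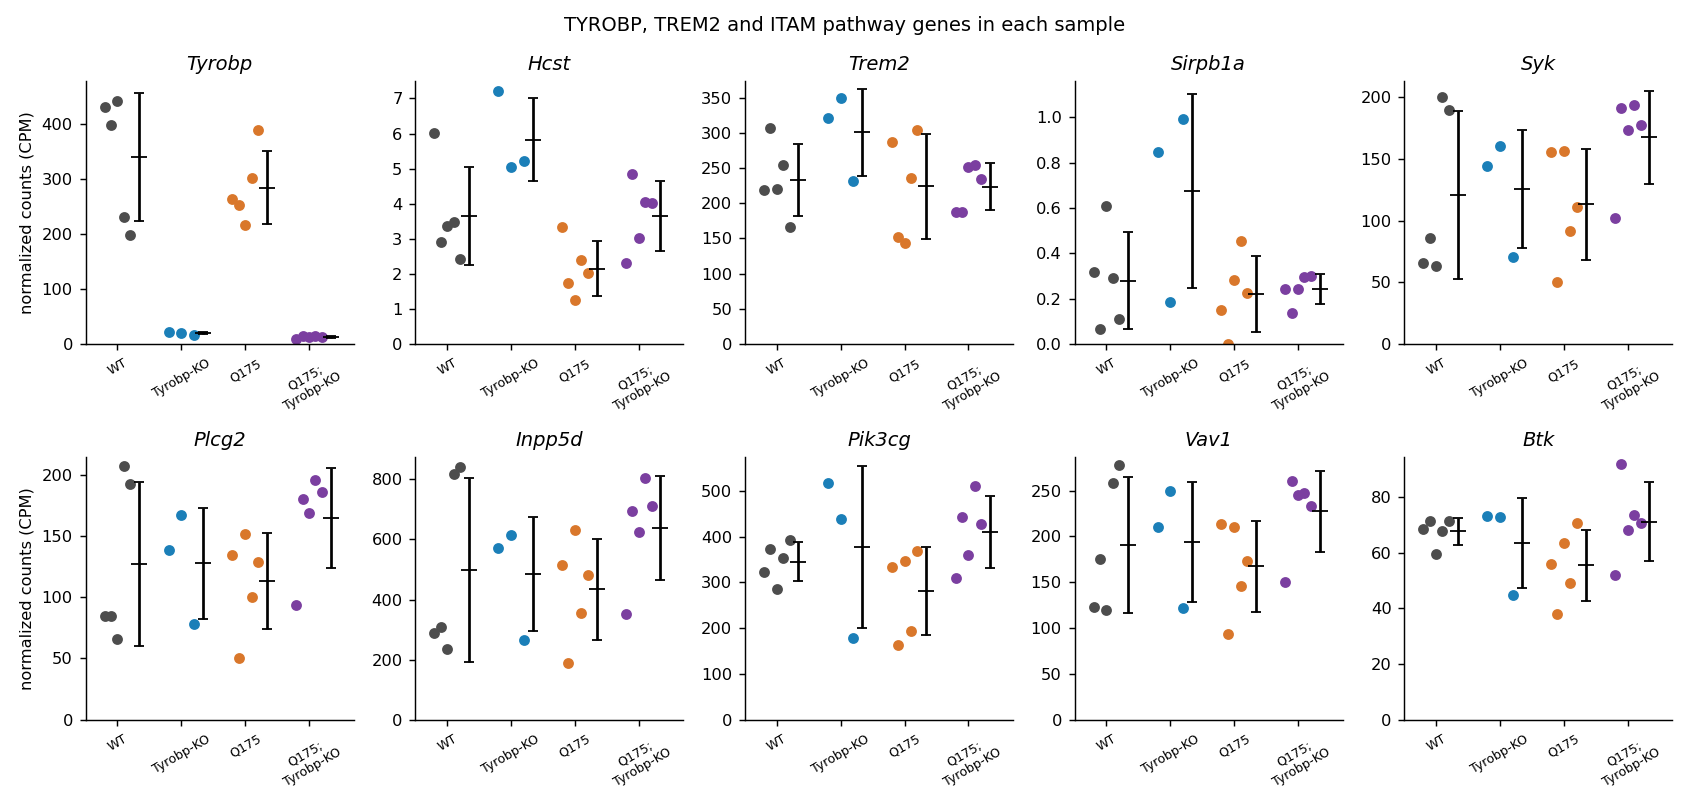
Each panel plots the normalized counts (CPM, linear axis from 0) of 1 gene in the 18 samples by group. Points are samples and the black marks beside them are the mean ± SD. Tyrobp is near 0 in both deleted groups, Trem2 overlaps in all 4 groups, and Syk, Plcg2, Inpp5d and Vav1 split the WT samples into replicates 1, 2 and 6 below and replicates 7 and 8 above.

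Hcst, the neighbouring adaptor gene, was low in all samples, between 1.25 and 7.20 CPM (19 to 119 counts). WT replicates 1, 2, 6, 7 and 8 had 6.02, 2.90, 3.37, 3.48 and 2.41 CPM, while Q175 replicates 3, 4, 9, 14 and 17 had 3.33, 1.75, 1.25, 2.40 and 2.02 CPM. Tyrobp-KO replicates 15, 19 and 20 had 7.20, 5.05 and 5.23 CPM, while Q175;Tyrobp-KO replicates 5, 11, 12, 13 and 16 had 2.31, 4.85, 3.03, 4.05 and 4.03 CPM. The order of the group means was Tyrobp-KO, Q175;Tyrobp-KO and WT, then Q175, and the Q175;Tyrobp-KO and WT means, 3.65 and 3.64 CPM, could not be separated. The mean of each deleted group was above that of its intact counterpart, with a log2 difference of 0.66 (SE 0.34, adjusted p = 0.811) in Tyrobp-KO against WT and 0.75 (SE 0.30, adjusted p = 0.533) in Q175;Tyrobp-KO against Q175. Averaged over both Htt genotypes the difference was 0.67 (SE 0.22, adjusted p = 0.344), the 424th smallest p of 18613 genes, and 64 of the 80 pairs of a deleted and an intact sample were higher in the deleted one. The difference kept its sign in all 28 alternatives of this comparison, between 0.589 and 0.806, with adjusted p between 0.12 and 0.755.

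The Q175 allele went with less Hcst in both Tyrobp genotypes, at -0.79 (SE 0.34, adjusted p = 0.741) in Q175 against WT and -0.68 (SE 0.26, adjusted p = 0.324) in Q175;Tyrobp-KO against Tyrobp-KO. In the former, 1 of 5 WT and 4 of 5 Q175 samples were female, and with sex as a term the difference was -1.07. In the latter the groups did not overlap, as for 9.04% of all genes. The short-transcript level did not overlap there either, and Hcst has 722 exonic bases, so this level and the allele cannot be told apart. Hcst passed an unadjusted p of 0.05 in 3 of the 4 pairwise comparisons and the FDR in none. Such a p was found for 6.24% of all genes in Q175 against WT and 8.01% in Q175;Tyrobp-KO against Q175. In Q175;Tyrobp-KO against Tyrobp-KO the share was 13.2%. Of the other protein-coding genes next to Tyrobp, Nfkbid, an atypical inhibitor of NF-kB 4146 bases away, differed by a log2 of 0.29 (SE 0.14, adjusted p = 0.544) between deleted and intact samples. Sdhaf1 differed by 0.27 (SE 0.16, adjusted p = 0.674), Lrfn3 by -0.58 (SE 0.23, adjusted p = 0.43) and Aplp1 by -0.22 (SE 0.17, adjusted p = 0.758), and E130208F15Rik was too low to test, at 0 to 0.608 CPM. The 6 nearest genes thus did not share a direction, and none of the 5 tested was called.

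Trem2, the receptor for lipids and apolipoproteins whose signal depends on TYROBP, passed the test in no comparison. It was at 218, 306, 220, 254 and 167 CPM in WT replicates 1, 2, 6, 7 and 8 and at 321, 350 and 231 CPM in Tyrobp-KO replicates 15, 19 and 20. In Q175 replicates 3, 4, 9, 14 and 17 it was at 286, 152, 143, 236 and 304 CPM, and in Q175;Tyrobp-KO replicates 5, 11, 12, 13 and 16 at 187, 188, 252, 254 and 235 CPM. The Tyrobp-KO mean was the highest and overlapped that of every other group in range. The log2 fold change was 0.35 (SE 0.24, adjusted p = 0.899) in Tyrobp-KO against WT, -0.07 (SE 0.25, adjusted p = 0.999) in Q175 against WT and -0.01 (SE 0.21, adjusted p = 0.977) in Q175;Tyrobp-KO against Q175. Between the deleted groups Trem2 was lower with the Q175 allele by 0.42 (SE 0.16, adjusted p = 0.326), in 12 of 15 pairs of samples.

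Per length of the principal transcript, the Trem2 level was of the order of that of Tyrobp where Tyrobp was intact. The ratio of Tyrobp to Trem2 per kb was between 1.75 and 3.88 in the 10 intact samples, with a lowest value in WT replicate 7 and a highest in WT replicate 6, and between 0.0987 and 0.156 in the 8 deleted samples. Tyrobp was at 602 ± 205 (SD, n = 5) CPM per kb in WT, above 99.7% of the 18266 genes tested there when levels were taken per kb of all exons. Trem2 was at 214 ± 47.4 (SD, n = 5) CPM per kb of its principal transcript. The exons annotated to Trem2 add up to 4946 bases and its principal transcript to 1088, and on the former length its WT level was 47.1 CPM per kb, so this comparison depends on which transcript the reads came from.

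A list of 20 receptors coupled to TYROBP holds some that pair with it and others, such as Csf1r, Plxna1, Itgam and Itgb2, that are linked to it indirectly. Among these and Trem2 and Sirpb1a, 22 in all, Csf1r, a receptor tyrosine kinase that signals by itself on binding colony-stimulating factor 1, had the highest level per kb of principal transcript in all 4 groups. Siglech, a microglial lectin, was second and Trem2 the third. In WT their means were 547 ± 309, 345 ± 20.5 and 214 ± 47.4 CPM per kb (SD, n = 5), so that Csf1r and Siglech were not separated by their spread, while the lowest Siglech sample, 311, was above the highest Trem2 sample, 282. Fcer1g, the other ITAM adaptor of myeloid cells, was at 409 ± 153 CPM per kb in WT (n = 5), and Hcst at 8.23 ± 3.16 (n = 5). Sirpb1a, a receptor of the signal-regulatory protein family, ranked between the 16th and the 18th place. It had at most 15 counts in a sample and at most 0.993 CPM, did not reach 1 CPM and was not tested in any comparison. In addition, 40.4% of the 50-base stretches of Sirpb1a transcripts also occur in transcripts of other genes, 37.3% in those of Sirpb1c, so even these few reads cannot be assigned to it with certainty. The same share was 0.572% for Inpp5d, 0.083% for Pik3cg and 0 for the other 7 genes.

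**Figure D2:**
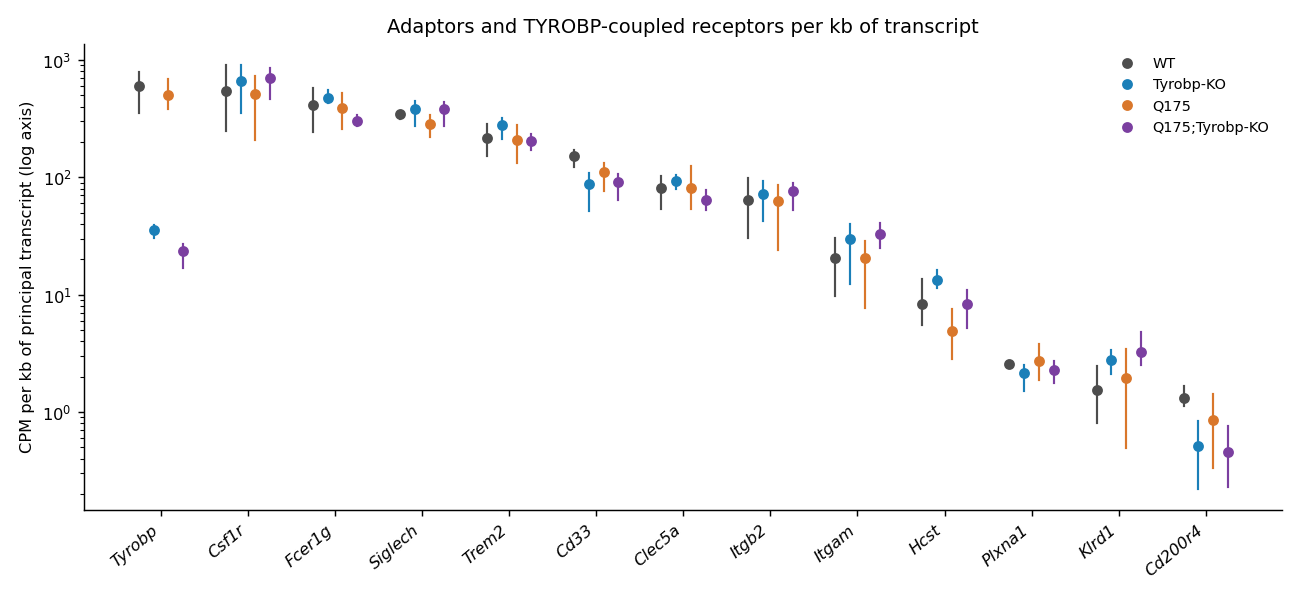
Mean level per kb of the principal transcript (CPM per kb, log axis) of the adaptors Tyrobp, Fcer1g and Hcst and of the receptors coupled to TYROBP directly or indirectly whose mean reached 1 CPM per kb in a group, by group. Lines run from the lowest to the highest sample. Tyrobp drops from 602 to 35.5 CPM per kb between WT and Tyrobp-KO, while the ranges of Trem2 overlap in all 4 groups.

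The 6 downstream genes are Syk, the tyrosine kinase that binds the phosphorylated ITAM, Btk, a Tec family kinase, Plcg2, the phospholipase that releases calcium, Vav1, an exchange factor for RAC, Pik3cg, the gamma PI3-kinase catalytic subunit, and Inpp5d. None of them was called in any of the 6 comparisons. Syk and Inpp5d show the pattern best. Syk was at 65.6, 85.7, 63.6, 200.2 and 189.8 CPM in WT replicates 1, 2, 6, 7 and 8, and at 144, 161 and 70.9 CPM in Tyrobp-KO replicates 15, 19 and 20. In Q175 replicates 3, 4, 9, 14 and 17 it was at 156, 50.4, 157, 91.9 and 111 CPM, and in Q175;Tyrobp-KO replicates 5, 11, 12, 13 and 16 at 102, 191, 173, 194 and 178 CPM. WT replicate 7 was the highest of all 18 samples and only Q175 replicate 4 was below WT replicates 1 and 6, so the WT group alone spanned nearly the whole range.

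Inpp5d had a similar order of samples on a higher level. It was at 287, 308, 234, 819 and 843 CPM in WT replicates 1, 2, 6, 7 and 8, and at 572, 614 and 267 CPM in Tyrobp-KO replicates 15, 19 and 20. In Q175 replicates 3, 4, 9, 14 and 17 it was at 516, 189, 630.4, 356 and 481 CPM, and in Q175;Tyrobp-KO replicates 5, 11, 12, 13 and 16 at 353, 693, 624, 805 and 713 CPM. Plcg2 ranged from 50.8 to 207 CPM and Vav1 from 94.0 to 278 CPM in the same manner. Their spread within groups was large: the pooled SD of log2 levels was 0.693 for Inpp5d, 0.647 for Syk and 0.613 for Plcg2, above 92.1%, 90.1% and 88.3% of the 10055 genes with a mean of at least 10 CPM, whose median SD was 0.31. Btk, with 0.29, was below that median. In WT Pik3cg ran only from 286 to 393 CPM and Btk from 59.7 to 71.5 CPM.

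Tyrobp ran opposite to Syk, Plcg2, Inpp5d and Vav1 within WT. Pik3cg and Btk did not split this way, with replicate 2 (373 and 71.4 CPM) above replicate 7 (352.5 and 67.8 CPM). Replicates 1, 2 and 6 had 397 to 442 CPM of Tyrobp and a geometric mean of the 6 effectors between 113 and 148 CPM, and replicates 7 and 8 had 198 and 231 CPM of Tyrobp and 244 and 250.0 CPM of the effectors. A measure of the libraries moved with this split. The short-transcript level, the median log2 deviation of 414 genes under 1500 exonic bases, none of them in a list used here, was between 0.171 and 0.296 in WT replicates 1, 2 and 6 and at -0.395 and -0.528 in replicates 7 and 8. Tyrobp has 667 exonic bases and the 6 effectors between 3149 and 9362. Over all samples the short-transcript level was lowest in WT replicate 8, Q175 replicate 9 and WT replicate 7 and highest in Tyrobp-KO replicate 20, whose effector mean was 107 CPM. Other samples departed from this order. Q175 replicate 4 had the lowest effector mean, 81.7 CPM, at a level of 0.0349, and Q175 replicate 17 had 178 CPM at 0.308. Tyrobp-KO replicates 15 and 19 had 213 and 226 CPM at 0.132 and 0.128. Fits with the short-transcript level as a term are given below, and its part in the result was not tested.

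**Figure D3:**
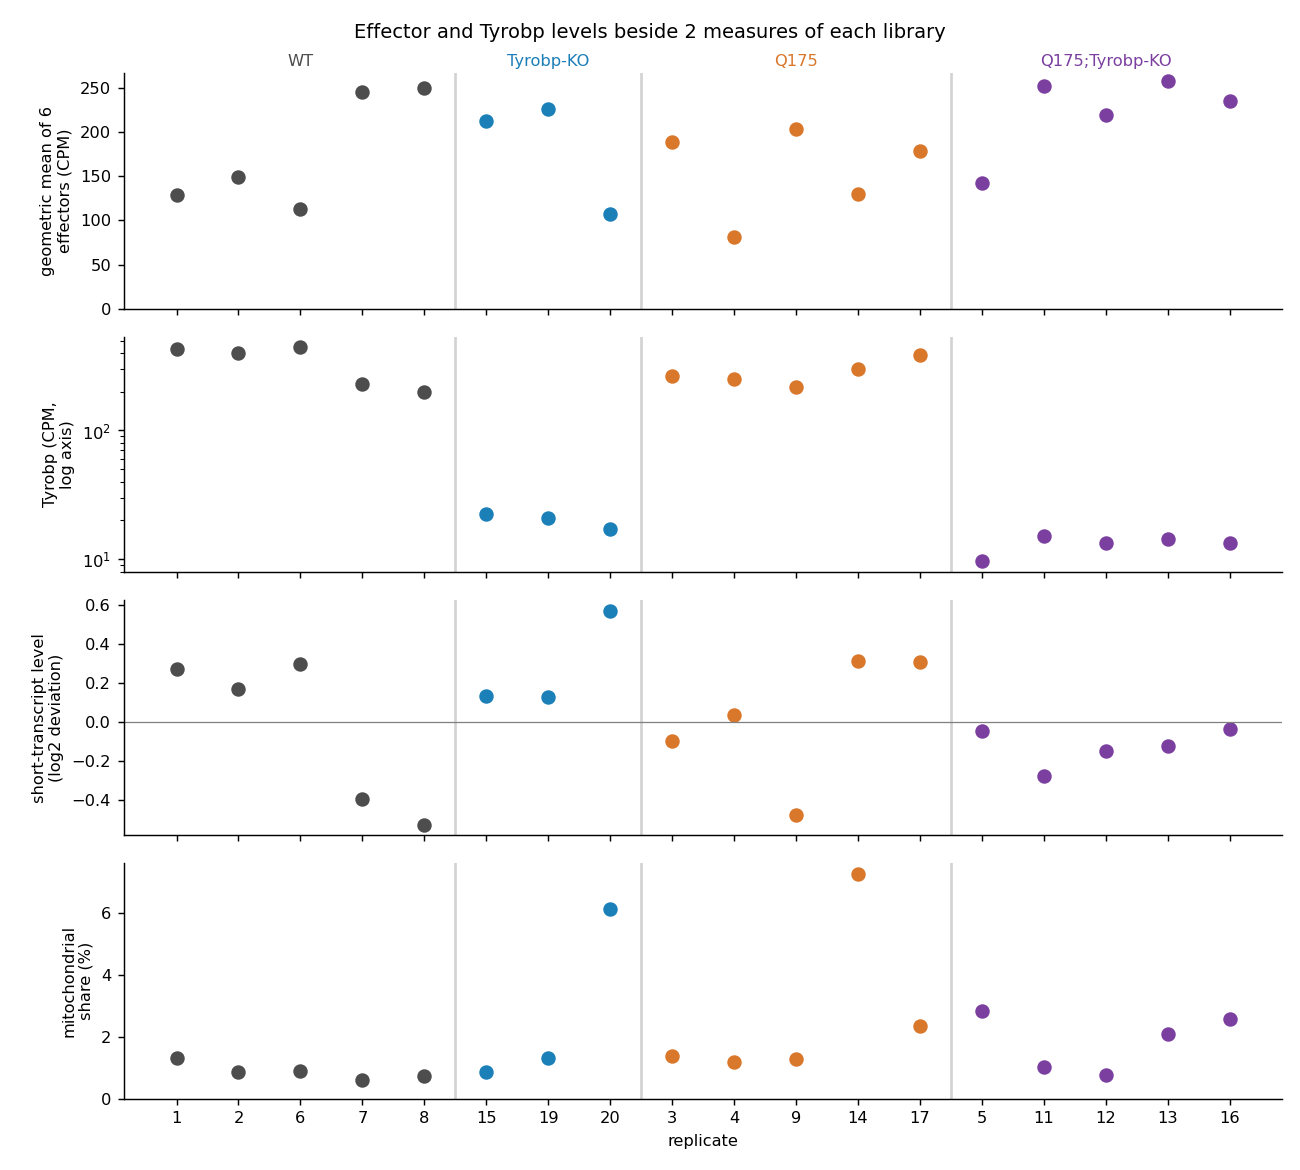
The 18 samples in order of group and replicate number, with the geometric mean of Syk, Plcg2, Inpp5d, Pik3cg, Vav1 and Btk (CPM), Tyrobp (CPM, log axis), the short-transcript level (log2 deviation) and the share of counts on mitochondrially encoded genes (%). WT replicates 7 and 8 are high in the effector mean and low in Tyrobp and in short transcripts, and Tyrobp-KO replicate 20 is the reverse in the effector mean and in short transcripts.

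In Tyrobp-KO against WT the 6 effectors had log2 fold changes between -0.101 and 0.117, with a median of 0.0108 beside 0.0175 over all genes, and standard errors between 0.196 and 0.474. Tyrobp-KO replicate 20 was the lowest of its group in all 6, and without it the values lay between 0.06 for Btk and 0.43 for Pik3cg, with adjusted p between 0.483 and 0.992. Without replicate 19 they lay between -0.24 and 0.00839. Of the 9 members tested, Tyrobp was the only one called, where 0.0222% of all genes (4 genes) were called by edgeR and 168 genes by DESeq2's Wald test, and the only one with an unadjusted p under 0.05, where 6.82% of all genes had one. It was also the only one that did not overlap, against 4.5% of all genes. Without single samples edgeR called 2 to 8 genes, with 8 without WT replicate 6 and 2 without Tyrobp-KO replicate 15 or 19. With the short-transcript level as a term, an alternative chosen after seeing the data, Syk, Inpp5d and Plcg2 were called higher in Tyrobp-KO, at 0.79 (adjusted p = 0.0535), 0.78 (adjusted p = 0.0578) and 0.68 (adjusted p = 0.0751), among 857 genes called in that fit instead of 4. Inpp5d thereby changed sign from -0.04.

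In Q175;Tyrobp-KO against Q175 all 6 effectors were higher in the deleted group, none past the threshold. Their log2 fold changes were 0.55 (SE 0.27) for Syk, 0.53 (SE 0.26) for Plcg2, 0.54 (SE 0.29) for Inpp5d, 0.54 (SE 0.23) for Pik3cg, 0.43 (SE 0.21) for Vav1 and 0.34 (SE 0.17) for Btk, all with an adjusted p of 0.533, and their median was 0.535 beside -0.0453 over all genes. Pik3cg alone had an unadjusted p under 0.05. Of the 9 members tested, 3 had one, Tyrobp, Hcst and Pik3cg, where 8.01% of all genes did, and 1 was called, Tyrobp, where 0.0111% of all genes (2 genes) were by edgeR and 41 genes by DESeq2's Wald test. Leaving out single samples gave 1 to 5 genes in edgeR, with 5 without Q175 replicate 9. Only Tyrobp did not overlap between the groups, against 0.853% of all genes. All 6 kept this direction in each of the 20 alternatives, with adjusted p between 0.252 and 0.93. Sex went with the groups, 4 of 5 Q175 samples being female, and with sex as a term the 6 values lay between 0.23 and 0.43.

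Low libraries were found in both groups of this comparison. Q175 replicate 4 had the lowest effector mean of all samples, 81.7 CPM, and also the lowest microglial marker level, 536 against 773 to 1070 in the Q175;Tyrobp-KO group. It also had the fewest counts of all samples, 11260410, and the highest share of counts on rRNA-like genes, 29.5%. Without Q175 replicate 4, the log2 fold changes of the 6 effectors lay between 0.26 for Btk and 0.41 for Pik3cg. Q175 replicate 14, at 129 CPM, was also below every Q175;Tyrobp-KO sample. Q175;Tyrobp-KO replicate 5, at 142 CPM, was far below the other 4 of its group, at 219 to 257 CPM, and had the highest astrocyte marker level of its group, 72.0. The part of these measures in the result was not tested.

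**Figure D4:**
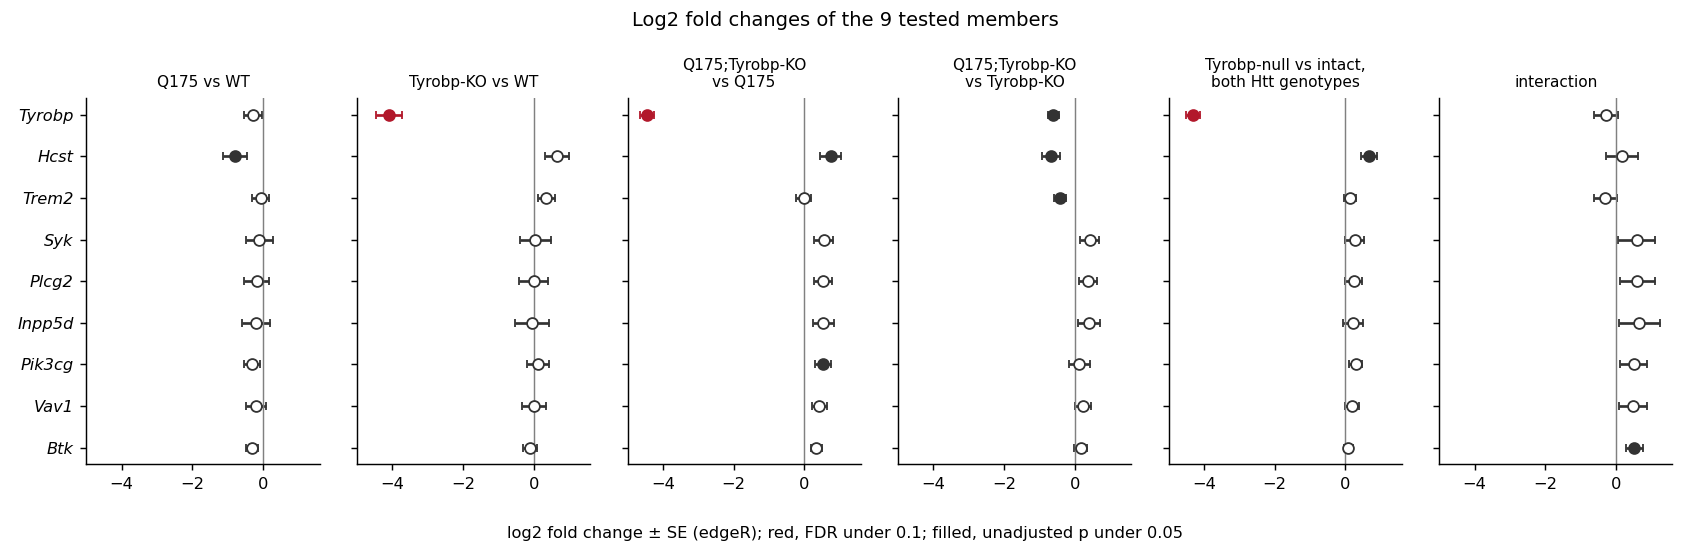
Log2 fold change ± SE from edgeR of the 9 tested members in 4 pairwise comparisons, in deleted against intact samples averaged over both Htt genotypes, and for the interaction. Red points passed an FDR of 0.1 and filled points an unadjusted p of 0.05. Only Tyrobp is red, in the 3 comparisons of deleted with intact samples, and the 6 effectors lie above 0 in Q175;Tyrobp-KO against Q175 and about 0 in Tyrobp-KO against WT.

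The Q175 allele alone gave no call. In Q175 against WT all 9 members tested had log2 fold changes below 0, between -0.785 for Hcst and -0.0724 for Trem2, with a median of -0.206 beside -0.0216 over all genes. None was called, nor was any other gene (0.0%), although 1140 genes had an unadjusted p under 0.05 and DESeq2's Wald test called 234. Sex went with these groups as well, 1 of 5 WT and 4 of 5 Q175 samples being female. With sex as a term 246 genes had an unadjusted p under 0.05. Hcst was the only member with an unadjusted p under 0.05, where 6.24% of all genes had one, and no member had groups that did not overlap, against 1.16% of all genes. Btk was the most even of the effectors, at -0.30 (SE 0.17, adjusted p = 0.926), lower in Q175 in 21 of 25 pairs of samples. In Q175;Tyrobp-KO against Tyrobp-KO the effectors were higher with the Q175 allele, by 0.13 (SE 0.30) for Pik3cg to 0.43 (SE 0.26) for Syk, with adjusted p between 0.525 and 0.889. There the short-transcript level did not overlap between the groups, at 0.128 to 0.570 in Tyrobp-KO and -0.276 to -0.0388 in Q175;Tyrobp-KO, so that it and the group cannot be told apart. Without Tyrobp-KO replicate 20 the 6 values lay between -0.192 and 0.163. With the short-transcript level as a term all 6 changed sign, from -0.31 for Plcg2 to -0.763 for Pik3cg.

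Whether the effect of the deletion depended on the Htt genotype was tested as an interaction over the 18 samples. The 6 effectors had interaction terms between 0.484 and 0.667 on the log2 scale, with a median of 0.552 beside 0.038 over all genes. Btk had the smallest p (0.52, SE 0.24, adjusted p = 0.716), and the others had adjusted p between 0.734 and 0.767. Of all genes 6.01% had an unadjusted p under 0.05 and none was called (0.0%), 1118 genes and 0 genes respectively, while DESeq2's Wald test called 2. With the short-transcript level as a term the interaction of Syk, Plcg2, Inpp5d and Vav1 became -0.25, -0.11, -0.22 and -0.07. Without Tyrobp-KO replicate 20 the 6 terms lay between 0.15 for Pik3cg and 0.37 for Inpp5d, and without this sample and Q175 replicate 14 between -0.00397 for Pik3cg and 0.26 for Plcg2. Tyrobp (-0.27, SE 0.33), Hcst (0.16, SE 0.45) and Trem2 (-0.30, SE 0.32) had adjusted p between 0.8 and 0.932. In the comparison of all 8 deleted with all 10 intact samples, 0.199% of all genes (37 genes) were called, 9.19% had an unadjusted p under 0.05 and 0.0698% did not overlap. DESeq2's Wald test called 204 genes, and edgeR called 592 without Tyrobp-KO replicate 20, 83 without Q175 replicate 17, and 22 without WT replicate 1 or Tyrobp-KO replicate 19. Of the 9 members, Tyrobp (-4.31, SE 0.21, adjusted p = 7.33e-10) was called and did not overlap, and Tyrobp and Hcst had an unadjusted p under 0.05.

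The other genes of the pathway were taken from 7 lists of 104 genes, of which 96 reached 1 CPM in some sample and were tested over all samples. In the comparison of deleted with intact samples 10 of the 96 had an unadjusted p under 0.05, 4 higher and 6 lower, beside the 9.19% of all genes. In Q175;Tyrobp-KO against Q175 these were 14 of 91, 10 higher and 4 lower, beside 8.01%. One of the 104, Clec7a, was called in a comparison. Clec7a is dectin-1, a lectin receptor that engages SYK through a tyrosine motif of its own, without TYROBP. It was at 58.2 to 108 CPM in WT and 11.9 to 15.7 CPM in Tyrobp-KO (log2 fold change -2.50, SE 0.28, adjusted p = 0.0213). In Q175 it was at 24.8 to 124 CPM and in Q175;Tyrobp-KO at 8.84 to 27.5 CPM (-2.10, SE 0.44, adjusted p = 0.392), and the average over both Htt genotypes was -2.34 (SE 0.31, adjusted p = 0.00171). The call in Tyrobp-KO against WT was lost without Tyrobp-KO replicate 15 or replicate 19 and when sex, or a score of astrocyte, neuron and oligodendrocyte markers, was a term of the fit. DESeq2's Wald test called Clec7a in Q175;Tyrobp-KO against Q175 as well.

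Of the 20 receptors coupled to TYROBP directly or indirectly, 15 were tested over all samples and none was called. Cd33, a sialic acid receptor whose mouse form pairs with TYROBP, was at 700.4 to 968 CPM in WT and 293 to 627 CPM in Tyrobp-KO. The groups did not overlap, as for 4.5% of all genes in this comparison. The log2 difference was -0.80 (SE 0.28, adjusted p = 0.61), and -0.59 (SE 0.16, adjusted p = 0.214) averaged over both Htt genotypes. Cd200r4, an activating receptor of the CD200 receptor family, was at 2.03 to 2.98 CPM in WT and 0.397 to 1.51 CPM in Tyrobp-KO, and its averaged difference was -1.19 (SE 0.33, adjusted p = 0.236). Clec5a, a lectin receptor of myeloid cells, had its smallest p between the deleted groups, at -0.57 (SE 0.15, adjusted p = 0.291) in Q175;Tyrobp-KO against Tyrobp-KO. The median log2 fold change of the 15 receptors in Tyrobp-KO against WT was 0.256, beside 0.0175 over all genes, with 11 above 0 and 4 below.

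Among the FCER1G-linked receptors, Fcer1g itself was at 287 to 375 CPM in Tyrobp-KO and 183 to 228 CPM in Q175;Tyrobp-KO, a log2 difference of -0.64 (SE 0.14, adjusted p = 0.291). Fcgr4, an IgG receptor that signals through it, differed there by -1.05 (SE 0.36, adjusted p = 0.307). In that comparison 48 of the 94 pathway genes tested were lower and 46 higher. An unadjusted p under 0.05 occurred in 7 of them, beside 13.2% of all genes. Of the 9 members tested, 3 were lower and 6 higher. Tyrobp, Hcst, Trem2, Fcer1g and Clec5a were among the lower ones, none past the FDR, beside the difference in short-transcript level given above. Other myeloid markers differed in the same direction: the level of 8 border macrophage markers was 4.97 to 5.53 in Tyrobp-KO and 3.31 to 4.68 in Q175;Tyrobp-KO (p = 0.0357 in a 2-sided exact permutation test, the smallest it can give here, adjusted p = 0.321), and that of 8 monocyte and neutrophil markers 5.88 to 12.7 and 3.16 to 8.27 (exact permutation p = 0.0714, adjusted p = 0.429). Their summed levels were 272 to 459 and 238 to 523 CPM for border macrophages, and 53.7 to 190.0 and 21.5 to 79.9 CPM for monocytes and neutrophils, with no marker at 0 throughout a group. The 7 endothelial markers differed by -0.716 on the log2 scale (exact permutation p = 0.0714, adjusted p = 0.429). The 18 microglial markers differed by -0.206 (exact permutation p = 0.286, adjusted p = 0.686). Of the cell types measured, only oligodendrocyte markers were higher in Q175;Tyrobp-KO, by 0.0929 (exact permutation p = 0.786, adjusted p = 0.832). Tyrobp-KO was also above WT in the border macrophage markers, which were at 3.35 to 4.09 in WT (exact permutation p = 0.0357, adjusted p = 0.321). Its monocyte and neutrophil markers were above those of WT by 1.02 on the log2 scale (exact permutation p = 0.25, adjusted p = 0.643), with WT at 1.52 to 14.1. The part of these markers in either comparison was not tested. In Tyrobp-KO against WT, Fcer1g differed by 0.19 (SE 0.32, adjusted p = 0.999).

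The kinases, adaptors and inhibitors around SYK gave no call. Of the Src family kinases, Fgr had the smallest p, at -1.14 (SE 0.39, adjusted p = 0.355) averaged over both Htt genotypes. Src had its smallest p in Q175;Tyrobp-KO against Q175, at -0.27 (SE 0.12, adjusted p = 0.533). Of 24 SYK-proximal adaptors and effectors 23 were tested, and in Q175;Tyrobp-KO against Q175 19 were above 0 and 4 below. Their median log2 fold change was 0.239, beside -0.0453 over all genes. An unadjusted p under 0.05 was found for 2 of the 23, beside 8.01% of all genes. These were the actin regulators Nckap1l (0.39, SE 0.17, adjusted p = 0.533) and Dock2 (0.43, SE 0.18, adjusted p = 0.533). Rac1 had its smallest p between the deleted groups (-0.26, SE 0.10, adjusted p = 0.33).

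In the PI3-kinase, AKT and ERK arm, Mtor was lower in deleted samples, at -0.42 (SE 0.13, adjusted p = 0.327) averaged over both Htt genotypes. Pik3cb had its smallest p in the interaction, at 0.64 (SE 0.23, adjusted p = 0.716). Of the inhibitors, Lilrb4a, an inhibitory receptor with tyrosine motifs that recruit phosphatases, was at 6.84 to 14.6 CPM in WT and 3.23 to 7.75 CPM in Tyrobp-KO, and differed by -1.43 (SE 0.36, adjusted p = 0.208) averaged over both Htt genotypes. Dok3, an adaptor that restrains SYK signalling, differed by 0.58 (SE 0.21, adjusted p = 0.387), and Ubash3b by 0.20 (SE 0.15, adjusted p = 0.751).

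Of 6 genes for TREM2 ligands and shedding, Clu, the lipoprotein clusterin, was at 24.7 to 62.2 CPM in WT and 59.9 to 343 CPM in Q175 (1.92 on the log2 scale, SE 0.44, adjusted p = 0.345). Clu is abundant in astrocytes, and the summed level of 15 astrocyte markers was 614 to 1110 CPM in WT and 1090 to 6070 CPM in Q175, with none of them at 0 throughout a group. Its part in the result was not tested. Sema6d, a ligand of plexin A1, differed by 0.38 (SE 0.16, adjusted p = 0.701) in Q175 against WT, and Adam10, a sheddase of TREM2, by -0.31 (SE 0.11, adjusted p = 0.315) between the deleted groups.

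**Figure D5:**
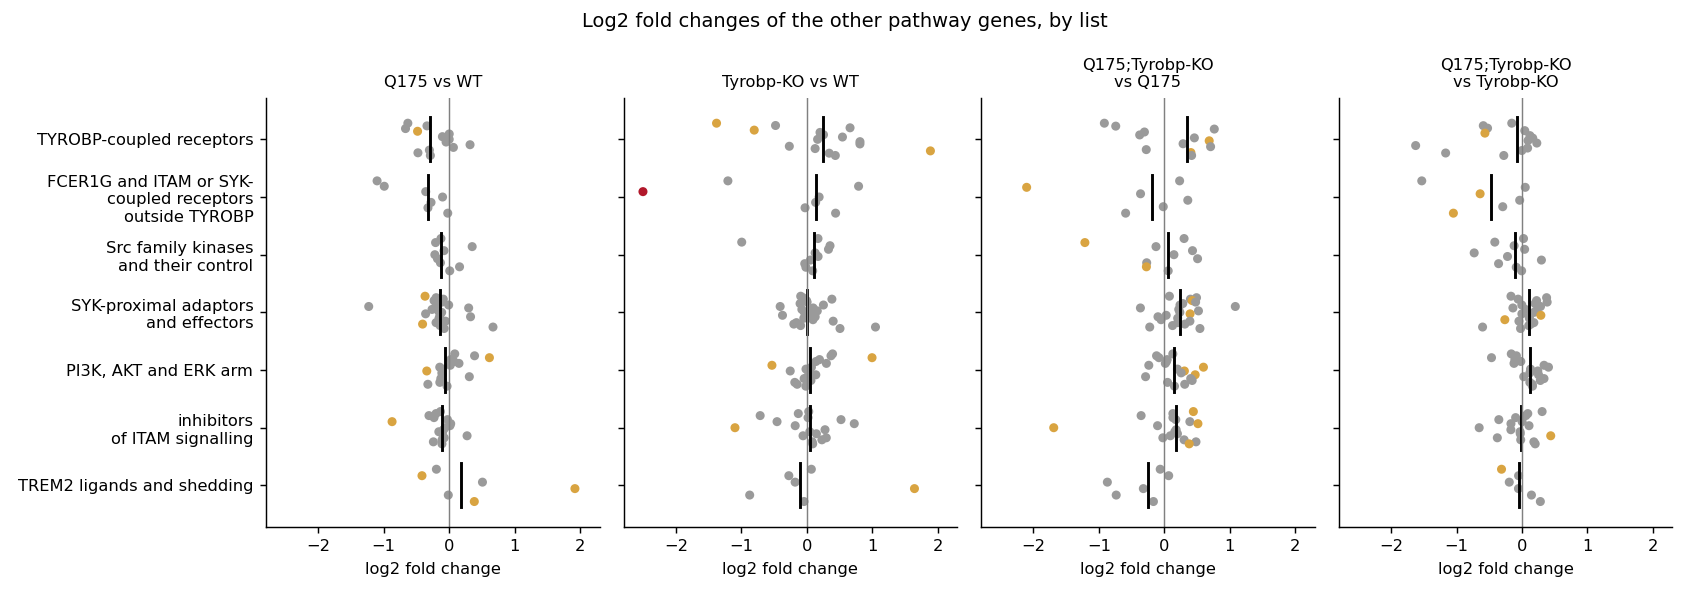
Log2 fold changes (edgeR) of the tested genes of 7 pathway lists in the 4 pairwise comparisons. Each point is a gene, black bars are list medians, red marks an FDR under 0.1, amber an unadjusted p under 0.05 and grey the rest. The only red point is Clec7a, at -2.50 in Tyrobp-KO against WT.

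The genes whose levels were most like each member over the 18 samples were found by the root mean square difference of log2 levels, each gene centred on its own mean, among 10055 genes. For Tyrobp they were St8sia6, Clec7a and Spp1, at 1.05, 1.16 and 1.23 beside a spread of Tyrobp itself of 2.15. The measure includes the size of a change, and Tyrobp is the deleted gene. A gene with the same pattern and a smaller change therefore also scores as unlike it, so these values cannot tell whether any gene followed its pattern. For Trem2 they were C1qa (0.107), Pfn1 (0.135) and Cyba (0.142), beside 0.358 for Trem2 itself. For Syk they were Pik3r5, a regulatory subunit of the gamma PI3-kinase, Frmd4a and Stk10, at 0.0952, 0.105 and 0.107. For Inpp5d they were Arhgap30, Pik3r5 and Plcg2, at 0.0926, 0.0959 and 0.0995, and for Plcg2 they were Inpp5d, Arhgap30 and Pik3r5, at 0.0995, 0.103 and 0.113. Vav1 was nearest to Nuak1 (0.0795), Smap2 (0.0851) and Nfkb1 (0.0952), Pik3cg to Entpd1 (0.109), Cyfip1 (0.135) and Ankrd44 (0.141), and Btk to Rnf180 (0.0856), Mtus1 (0.0941) and Efl1 (0.0942). The nearest genes of Hcst, Bst2, Inka1 and A130010J15Rik, were at 0.37 to 0.383 beside 0.547 for Hcst, and those of Sirpb1a, Cib1, D8Ertd738e and Cfdp1, at 0.285 to 0.294 beside 0.395. Sirpb1a had only 0 to 15 counts per sample, so its likeness to any gene rests on very few reads. All these points share the depth and the RNA quality of the 18 libraries.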

How the data were processed

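Per the labels and the methods, the authors made non-directional libraries with SMART-Seq v4 low-input reagents. Alignment was with STAR to GRCm38 and counting with featureCounts. The authors deposited raw counts for Ensembl genes, without normalization. The labels' processing notes name another build, while all 55536 identifiers are in GENCODE M21 of GRCm38, which gave symbols, positions and lengths. The methods give 1 striatum and the labels 2 striata per sample. The table has 2 further columns that match no label and were left out. Within groups, the counts of 33 pairs of samples differed by a chi-square of 15.9 to 287 per degree of freedom, so no sample was a copy of another.

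Counts were analysed with edgeR 4.0.16 in R 4.3.3 (TMM, quasi-likelihood test, FDR of 0.1, genes reaching 1 CPM in any sample compared), each pairwise comparison on its own samples and the average over Htt genotypes and the interaction over all 18. CPM values are TMM-normalized, and logs of levels use a pseudocount of 0.5 CPM. The script was tested on simulated data. Alternatives were DESeq2 1.42.0, its size factors, total counts, filterByExpr, no filter, an FDR of 0.05, robust fitting, sex or a non-microglial score (astrocyte, neuron and oligodendrocyte markers) as a term, 1 fit over all groups and leaving out each sample. Added after seeing the data were the short-transcript level as a term and the fit without Tyrobp-KO replicate 20 and Q175 replicate 14. Marker levels are geometric means of CPM plus 1, compared with 2-sided exact permutation tests. Intervals of counting error would not cover amplification, since reads without molecular identifiers are not independent molecules. Named are all members, pathway genes called in a comparison, the 3 of each list with the smallest p, the 3 genes most like each member and the 3 nearest protein-coding genes on each side of Tyrobp, of which some are not reported here. The members, lists and alternatives were chosen with earlier results of these data known.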

Additional observations from a re-analysis of the deposited data

Results flagged for a closer look

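In 28 groups of 5 samples of a member gene, the gap of the highest or the lowest sample to the next was compared with Dixon's critical value, which chance passes in about 1 of 20 groups. It was passed 3 times, each time by the lowest value of Q175;Tyrobp-KO replicate 5: Syk at 102.2 CPM beside 173 to 194 CPM in the other 4 samples, Plcg2 at 93.4 CPM beside 169 to 195 CPM, and Vav1 at 150.5 CPM beside 233 to 260.3 CPM. The 3 genes move together over the samples, so these are not separate events. This sample also had the lowest Tyrobp level of all, 9.59 CPM, a mitochondrial share of 2.83%, the highest of its group, and an astrocyte marker level of 72.0 beside 17.2 to 46.5 in the others. The part of these measures in the result was not tested.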

How the results depend on the processing

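No paired analysis was possible because no replicate number in the labels occurs in more than 1 group. The 54 log2 fold changes of the 9 members were recomputed in 1188 alternatives. Of these, 1113 kept the sign and 75 did not. Of these 75, 1 was called, Inpp5d in Tyrobp-KO against WT, at 0.78 with the short-transcript level as a term. Tyrobp was called in every alternative of the 3 comparisons of deleted with intact samples. With the short-transcript term, 4 members instead of 1 and 15 pathway genes instead of 1 were called in Tyrobp-KO against WT, and 1 member and 20 pathway genes instead of 0 in Q175;Tyrobp-KO against Tyrobp-KO. The term raised the calls over all genes from 4 to 857 and from 0 to 2360, and the cause was not tested. DESeq2's Wald test called 1 pathway gene (Clu) instead of 0 in Q175 against WT, and 1 (Clec7a) instead of 0 in Q175;Tyrobp-KO against Q175, where 1 fit over all 4 groups also called 1 (Clec7a). It called 1 member (Tyrobp) and 2 pathway genes (Clec5a and Fcer1g) instead of 0 in Q175;Tyrobp-KO against Tyrobp-KO, and 4 pathway genes (Cd200r4, Cd33, Clec7a and Lilrb4a) instead of 1 in all deleted against all intact samples. In Tyrobp-KO against WT, a term for sex and one for the non-microglial score each left 0 pathway genes called, and leaving out single samples gave 0 to 1, with 0 without Tyrobp-KO replicate 15 or 19. In all deleted against all intact samples the score gave 2 (Cd33 and Clec7a), and leaving out single samples 1 to 3, with 3 without Tyrobp-KO replicate 20 (Clec7a, Dok3 and Mtor) and 2 without Q175 replicate 9 (Clec7a and Lilrb4a). Total counts in place of TMM moved the median of all genes by 0.13 on the log2 scale in Q175;Tyrobp-KO against Q175 and by 0.111 in the interaction. Depth limits Hcst, with 19 to 119 counts per sample, and Sirpb1a, with 0 to 15.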
